A study of Mus musculus with 9 samples.

Results

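The late set comprised 19 protein coding genes of C2C12 cells, a line of mouse myoblasts whose cells fuse into myotubes once serum is lowered, out of 21697 protein coding genes listed. They were chosen by 3 limits that had to hold in each genotype: Cry1 knockdown, Cry2 knockdown and control. Day 5 had to reach at least 3 CPM (gene counts scaled to an equal library total), day 5 had to be at least 2 times day 3, and day 3 could exceed day 0 by at most 25%. Because these values chose the genes, the changes between days, and how those changes compare between genotypes, are a description with no test. The limits did not compare levels between genotypes. They did ask for the same pattern of days, and for 3 CPM at day 5, in each genotype. The choice was thus not wholly free of the values used in the genotype tests. Wider lists were also chosen in 2 genotypes only, and those choices did not use the genotype left out.

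PolyA RNA was sequenced from Cry1 knockdown, Cry2 knockdown and control cells on days 0, 3 and 5 after the switch of medium. There were 9 libraries, 1 per genotype and day, and no replicates. All cells were kept in 10% fetal bovine serum, and from day 0 in 5% horse serum with 1% of an insulin, transferrin and selenium supplement. The means of knockdown, what the control received and whether a line was 1 clone are not given in the sources used here. Library totals ran from 4731020 to 6412279 counts, and the limit that a count of 0 allows (3 counts) came to between 0.468 and 0.634 CPM, for counting error only.

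CRY1 and CRY2 are repressors of the circadian clock, which hold back the activator pair CLOCK and BMAL1 at E-box sequences such as CACGTG. Differentiating C2C12 cells leave the cell cycle, switch on the myogenic factors and build sarcomeres over several days. Most sarcomere genes come on early in that program, whereas the genes described here were chosen because day 3 was no peak for them.

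The targeted genes were read first, as a check of the labels. Cry1 was at 8.75, 6.61 and 7.63 CPM on days 0, 3 and 5 in the Cry1 knockdown, against 21.8, 15.5 and 16.6 CPM in the control. Cry2 was at 7.74, 8.24 and 15.7 CPM in the Cry2 knockdown, against 20.4, 38.9 and 46.6 CPM in the control. Over the 3 days Cry1 fell by 1.22 ± 0.22 (log2, SE) in the Cry1 knockdown and Cry2 fell by 1.74 ± 0.17 in the Cry2 knockdown, with adjusted p of 0.0265 and 0.0138 in edgeR's quasi-likelihood test with Benjamini-Hochberg adjustment. Myotube markers (Myog, Acta1, Myh3, Ckm, Tnnt3 and Mymk) summed to 218 to 918 CPM at day 0, to 11070 to 16000 CPM at day 3 and to 15630 to 16700 CPM at day 5, so all 3 genotypes carried them at days 3 and 5.

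The set held no gene of the lists of sarcomere genes, myogenic factors, clock genes or adult myofibre genes. These lists held 11 to 32 genes each, and the limit on day 3 kept out any gene already raised by then. Nothing is therefore read from this absence. Of 34 lists of pathways and cell types, 2 held a member: Ptx3 among acute phase genes and targets of NF-kB, and C1s1 among complement genes. By role the 18 members described here fell into muscle and nuclear proteins (Ankrd1, Mxd1, Rad54b), enzymes (Ptgs2, Xdh, Dhrs3, Foxred2, Gxylt2), secreted and guidance proteins (Ptx3, C1s1, Sema3f, Thsd7a), and proteins of membranes and vesicle traffic (Abca1, Cd24a, Nckap1l, Cpne2, Tbc1d12, Tpd52l1). They lay on 10 chromosomes, and the nearest pair, Ankrd1 and Tbc1d12 on chromosome 19, were 2.72 Mb apart.

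Promoter sequence was matched for 13 of the 19 members, in 16 windows of 250 bases before an annotated start, from RefSeq on GRCm38.p6; Cd24a, Nckap1l, Rad54b, Sema3f and Xdh were among those with no entry. The 4 windows below are printed because Abca1 and Foxred2 hold the CACGTG to which clock and MAX factors bind, Mxd1 encodes such a MAX partner, and Ankrd1 was the most abundant member. All 4 genes lie on the minus strand, at chr4:53159896-53160145 for Abca1, chr15:77956723-77956972 for Foxred2, chr6:86669160-86669409 for Mxd1 and chr19:36119845-36120094 for Ankrd1. Each sequence runs 5′ to 3′ on the strand of the gene and ends at the base before the RefSeq start. The gene positions given further below come from the GENCODE annotation, in which Ankrd1 extends to 36120099. By that annotation the Ankrd1 window lies inside the gene. Capitals mark the E-box CACGTG, the TATA box TATAAA and the CAAT box CCAAT, the last also as its complement ATTGG.
Abca1: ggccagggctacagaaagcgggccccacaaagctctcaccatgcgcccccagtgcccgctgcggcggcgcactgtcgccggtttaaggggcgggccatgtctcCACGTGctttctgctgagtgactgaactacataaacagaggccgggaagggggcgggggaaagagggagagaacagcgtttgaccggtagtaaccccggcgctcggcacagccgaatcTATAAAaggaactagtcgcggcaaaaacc
Foxred2: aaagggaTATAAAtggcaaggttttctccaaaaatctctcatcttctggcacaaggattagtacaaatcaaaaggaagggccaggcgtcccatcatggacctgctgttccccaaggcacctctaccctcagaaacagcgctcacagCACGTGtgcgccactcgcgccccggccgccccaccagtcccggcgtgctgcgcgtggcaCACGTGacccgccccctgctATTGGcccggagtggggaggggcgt
Mxd1: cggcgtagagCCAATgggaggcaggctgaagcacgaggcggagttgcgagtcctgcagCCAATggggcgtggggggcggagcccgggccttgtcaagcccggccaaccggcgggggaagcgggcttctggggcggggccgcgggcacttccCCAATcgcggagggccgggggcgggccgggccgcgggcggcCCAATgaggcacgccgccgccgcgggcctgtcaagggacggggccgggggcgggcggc
Ankrd1: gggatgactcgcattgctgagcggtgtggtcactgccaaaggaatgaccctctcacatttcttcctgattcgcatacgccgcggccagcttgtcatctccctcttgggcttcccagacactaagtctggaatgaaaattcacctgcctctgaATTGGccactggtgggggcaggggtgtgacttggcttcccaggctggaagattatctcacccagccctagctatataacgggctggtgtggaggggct

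In the Abca1 window CACGTG began 147 bases before the start and TATAAA 29 bases before it. The Foxred2 window held CACGTG 104 and 45 bases before the start and ATTGG 25 bases before it. The Mxd1 window was 78.4% G and C, the highest share of the 16, and held CCAAT 4 times, 240, 192, 99 and 58 bases before the start. The Ankrd1 window held ATTGG 98 bases before the start and no CACGTG.

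Counted on both strands, CACGTG was in 2 of the 16 windows (12.5%), against 6.63% of the windows of all 21263 protein coding starts and 8.66% of those of genes at 3 CPM or more on day 5. The wider E-box CANNTG, which includes CACGTG, was in 62.5% of the late windows, against 62.8% of all windows and 56.6% of those of the expressed genes. CCAAT was in 50% of the late windows, against 35.4% of all and 35.0% of expressed ones. TATAAA was in 12.5%, against 11.6% and 6.20%, and GGGCGG in 37.5%, against 42.6% and 59.6%. No late window held the CRE (TGACGTCA), the AP-1 site (TGANTCA), the FoxO site (GTAAACA), the D-box (TTATGNAA) or the MEF2 site, which were in 1.92%, 6.13%, 2.62%, 2.86% and 3.06% of all windows and in 2.66%, 4.30%, 2.12%, 1.67% and 2.77% of expressed ones. Of the other motifs searched, the metal response element (TGCNCNC) was in 75% of the late windows, against 46.9% of all and 53.4% of expressed ones, and the antioxidant response element (TGACNNNGC) in 18.8%, against 10.4% and 11.6%. The NF-kB site was in 68.8%, against 51.8% and 61.85%, and the interferon response element in 12.5%, against 2.96% and 2.38%, in 2 overlapping windows of Dhrs3. Both of these windows lie inside Dhrs3 as GENCODE places the gene. The STAT site (TTCNNNGAA) and the SMAD box (GTCTAGAC) were in no late window, against 6.58% and 0.183% of all and 5.50% and 0.237% of expressed ones. With 16 windows each match is a description of letters in this stretch and no test was made.

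The label of genes that climb only after day 3 fitted the members in part. Day 3 lay below day 0 in every genotype for 15 of the 19, so that for most genes day 5 followed a low at day 3, and day 3 lay above day 0 in all genotypes for 0. Day 3 stayed at 0.8 times day 0 or more throughout for 2 genes, Mxd1 and Cpne2. Day 5 exceeded day 0 in all 3 genotypes for 13 genes, and was at least 2 times day 0 in all 3 for 3 genes, Mxd1 and Cpne2 among them. It remained below day 0 in all 3 for Dhrs3, Foxred2 and Rad54b, and the genotypes lay on different sides of day 0 for Xdh, Nckap1l and Tpd52l1.

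**Figure D1:**
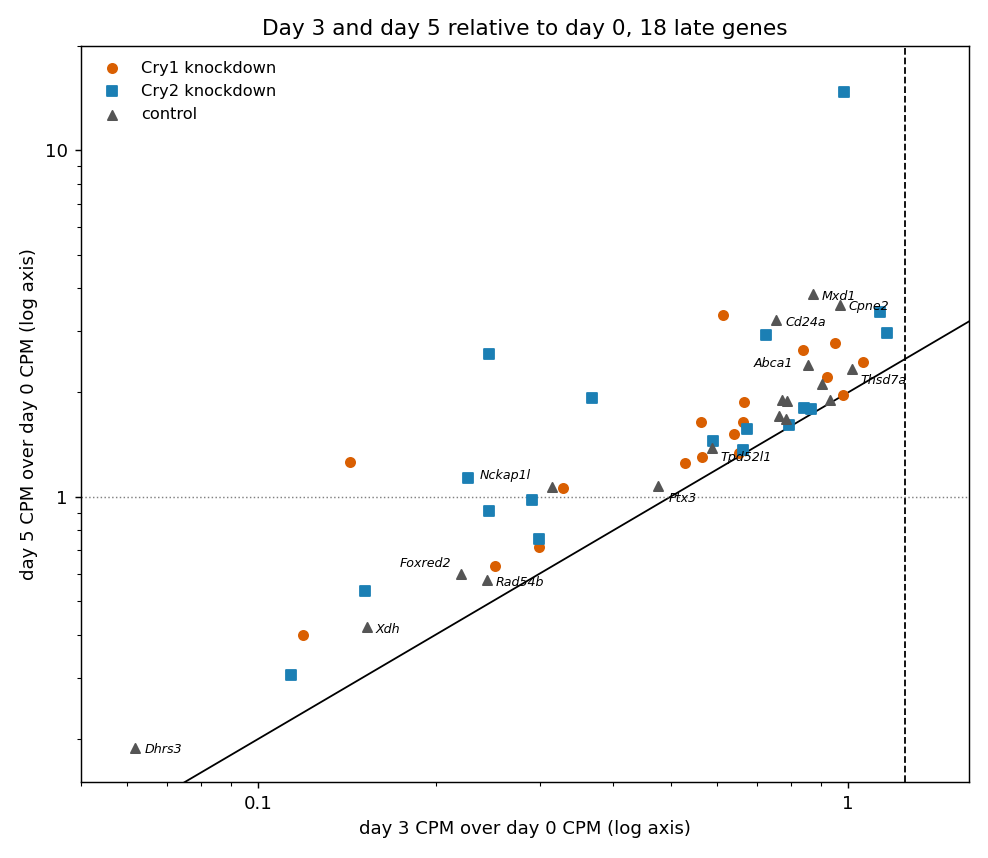
Each point is 1 late gene in 1 genotype, with day 3 CPM over day 0 CPM on the x axis and day 5 CPM over day 0 CPM on the y axis, both on log axes; some control points carry a gene name. The solid line marks a day 5 over day 3 ratio of 2 and the dashed line a day 3 that is 25% above day 0, the limits of the rule. Dhrs3, Foxred2 and Rad54b lie under the dotted line at 1 in every genotype, and Cd24a in the Cry2 knockdown lies highest at 14.7.

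**Figure D2:**
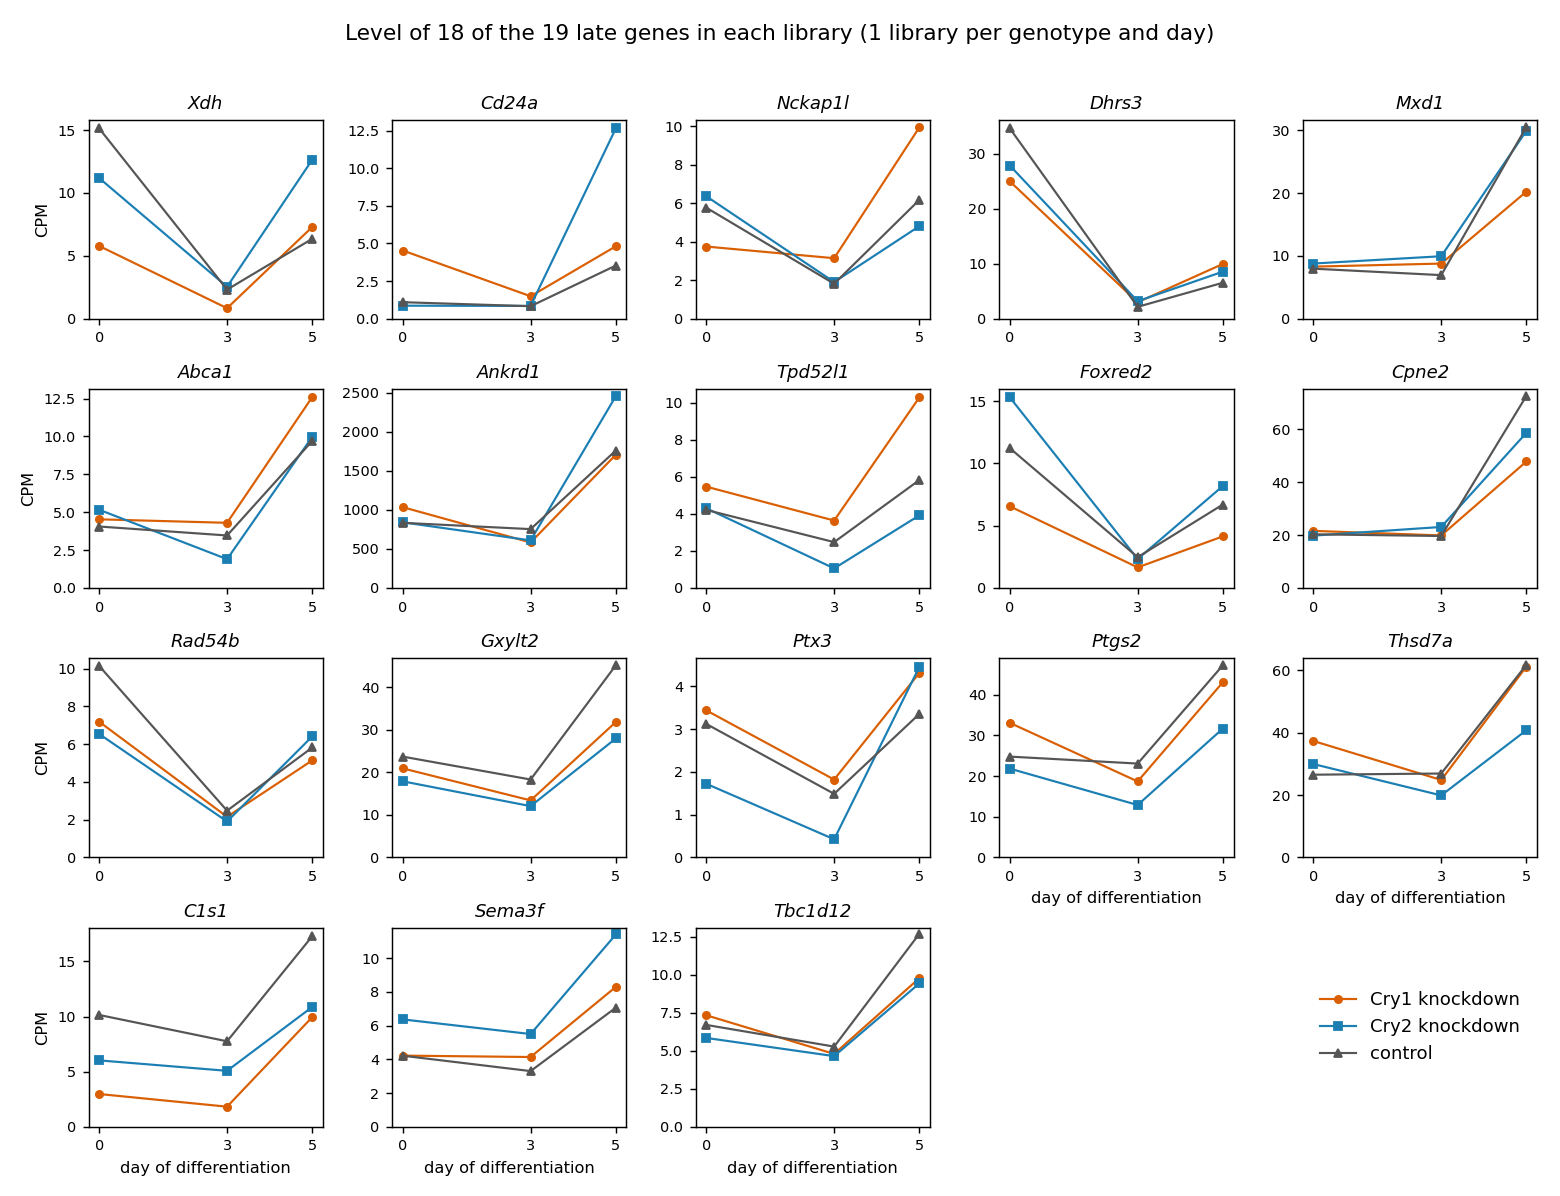
CPM of 18 late genes (y axis, starting at 0, each gene with its own range) by day of differentiation (x axis) in the Cry1 knockdown, the Cry2 knockdown and the control, 1 library per point. Cpne2 and Mxd1 stay near their day 0 level at day 3, whereas Dhrs3, Foxred2, Rad54b and Xdh lie below 0.5 times day 0 at day 3 in every genotype.

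Ankrd1 was the most abundant member. It encodes the cardiac ankyrin repeat protein, which binds titin in the sarcomere and also acts in the nucleus as a cofactor of transcription. Ankrd1 (ENSMUSG00000024803, chr19:36111961-36120099, minus strand, mm10) was at 1034, 582 and 1705 CPM on days 0, 3 and 5 in the Cry1 knockdown, at 840.5, 609 and 2454 CPM in Cry2 knockdown cells and at 834, 753 and 1759 CPM in control cells. The day 5 over day 3 ratio was 2.93 (95% exact counting interval 2.82 to 3.04), 4.03 (3.87 to 4.20) and 2.34 (2.26 to 2.42) in the same order of genotypes. Its day 5 level in the Cry2 knockdown lay above that of both other genotypes, which were close to each other. Per kilobase of exon Ankrd1 averaged 684 CPM at day 5 over the genotypes, against 18.6 for Cpne2, the next highest late gene on that scale.

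Mxd1 and Cpne2 kept to the label, with a flat day 3 and a day 5 above both earlier days. Mxd1, a MAX partner that opposes MYC at E-boxes, was at 8.28, 8.77 and 20.2 CPM in Cry1 knockdown cells, at 8.77, 9.93 and 29.9 CPM in Cry2 knockdown cells and at 7.95, 6.93 and 30.5 CPM in control cells. Cpne2, a copine that binds membranes in response to calcium, was at 21.6, 19.8 and 47.8 CPM in Cry1 knockdown cells, at 19.8, 23.0 and 58.6 CPM in Cry2 knockdown cells and at 20.3, 19.6 and 72.5 CPM in control cells. Day 5 over day 0 ran from 2.22 to 3.84 over these 2 genes and all genotypes, and the 3 day 5 values of each gene lay above its 6 earlier ones.

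Among the enzymes, Ptgs2 and Gxylt2 ended above day 0. Ptgs2 encodes cyclooxygenase 2, which makes the precursor of the prostaglandins, and was at 33.1, 18.7 and 43.1 CPM in Cry1 knockdown cells, at 21.8, 12.9 and 31.7 CPM in Cry2 knockdown cells and at 24.8, 23.1 and 47.3 CPM in control cells. Gxylt2, a xylosyltransferase that extends sugars on Notch, was at 20.9, 13.4 and 31.8 CPM in Cry1 knockdown cells, at 17.9, 12.1 and 28.0 CPM in Cry2 knockdown cells and at 23.7, 18.3 and 45.2 CPM in control cells. Both genes were lowest at every day in the Cry2 knockdown, and their day 5 over day 3 ratios spanned only 2.05 to 2.47 over the genotypes.

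Dhrs3, Foxred2 and Xdh had the lowest day 3 relative to day 0. Dhrs3, a reductase that turns retinal back into retinol, was at 25.0, 2.98 and 9.95 CPM in Cry1 knockdown cells, at 27.9, 3.17 and 8.55 CPM in Cry2 knockdown cells and at 34.6, 2.14 and 6.53 CPM in control cells, so that day 5 held 0.398, 0.307 and 0.189 of day 0. Foxred2 (ENSMUSG00000016552, chr15:77940522-77956722, minus strand), an oxidoreductase of the endoplasmic reticulum, was at 6.56, 1.65 and 4.15 CPM in Cry1 knockdown cells, at 15.3, 2.33 and 8.19 CPM in Cry2 knockdown cells and at 11.2, 2.47 and 6.71 CPM in control cells. Day 5 was 0.535 to 0.632 of day 0 for Foxred2, nearly the same share in each genotype. Xdh, which encodes the xanthine dehydrogenase of purine breakdown, was at 5.78, 0.827 and 7.30 CPM in Cry1 knockdown cells, at 11.2, 2.54 and 12.6 CPM in Cry2 knockdown cells and at 15.1, 2.31 and 6.35 CPM in control cells. Its day 5 over day 0 ratio was 1.26 and 1.13 in the knockdowns and 0.42 in the control, and of its transcript's 50-base words 11.5% occur in other genes as well.

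Rad54b, a helicase-like protein of homologous recombination, also had a low day 3. It was at 7.19, 2.15 and 5.14 CPM in Cry1 knockdown cells, at 6.54, 1.90 and 6.41 CPM in Cry2 knockdown cells and at 10.1, 2.47 and 5.82 CPM in control cells. Day 5 was thus at 0.716, 0.981 and 0.575 of day 0. Of its exon bases 35.9% overlap Fsbp and the antisense Gm11832, and the library kit does not keep strand, so reads there cannot be assigned to 1 gene. Fsbp was counted at no more than 0.829 CPM and Gm11832 at no more than 0.625 CPM in any library.

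The secreted proteins were mostly low. C1s1 (ENSMUSG00000038521, chr6:124530345-124542359, minus strand) encodes the C1s protease of the first step of the classical complement pathway, and was at 2.97, 1.82 and 9.95 CPM in Cry1 knockdown cells, at 6.02, 5.07 and 10.9 CPM in Cry2 knockdown cells and at 10.1, 7.75 and 17.3 CPM in control cells. The Cry1 knockdown was lowest at each day and the control highest. Of the 50-base words of C1s1 39.0% occur also in C1s2 or in the antisense Gm16567, which makes its counts uncertain, although C1s2 reached at most 1.06 CPM and Gm16567 was at 0 in all 9 libraries. Ptx3, a long pentraxin of innate immunity, was at 3.44, 1.82 and 4.31 CPM in Cry1 knockdown cells, at 1.72, 0.423 and 4.45 CPM in Cry2 knockdown cells and at 3.12, 1.49 and 3.35 CPM in control cells. Its day 3 value in the Cry2 knockdown rests on 2 counts, and its ratio in the control of 2.26 has an interval of 0.974 to 5.67 that includes 1.

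Sema3f and Thsd7a complete that group. Sema3f, a secreted semaphorin that repels growing axons through neuropilin 2, was at 4.22, 4.13 and 8.29 CPM in Cry1 knockdown cells, at 6.36, 5.50 and 11.4 CPM in Cry2 knockdown cells and at 4.21, 3.30 and 7.06 CPM in control cells. It stood nearest to the limit of the rule, with a smallest ratio of 2.01, and was highest at every day in the Cry2 knockdown. Thsd7a, a membrane protein with thrombospondin repeats, was at 37.3, 24.8 and 61.2 CPM in Cry1 knockdown cells, at 29.9, 19.9 and 40.8 CPM in Cry2 knockdown cells and at 26.5, 26.9 and 61.8 CPM in control cells. Day 3 was 0.664 of day 0 in either knockdown and 1.01 of it in the control.

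Among membrane and traffic proteins, Abca1, the transporter that loads cellular cholesterol onto apolipoprotein A-I, was at 4.53, 4.30 and 12.6 CPM in Cry1 knockdown cells, at 5.16, 1.90 and 9.98 CPM in Cry2 knockdown cells and at 4.06, 3.46 and 9.71 CPM in control cells. Cd24a, a small mucin-like protein anchored in the outer membrane, was at 4.53, 1.49 and 4.81 CPM in Cry1 knockdown cells, at 0.860, 0.846 and 12.6 CPM in Cry2 knockdown cells and at 1.09, 0.825 and 3.53 CPM in control cells. Cd24a had the widest spread between genotypes at day 0 and at day 5, with the highest library at 5.27 and 3.58 times the lowest. Its ratio of 15.0 in the Cry2 knockdown rests on 4 counts at day 3, with an interval of 5.59 to 56.4.

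Nckap1l, the subunit of the actin-regulating WAVE complex known from blood cells, was at 3.75, 3.14 and 9.95 CPM in Cry1 knockdown cells, at 6.36, 1.90 and 4.81 CPM in Cry2 knockdown cells and at 5.77, 1.81 and 6.18 CPM in control cells. Macrophage and blood markers (Ptprc, Cd68, Adgre1, Csf1r and Hbb-bs) summed to 1.38 to 2.50 CPM at day 0, 0.660 to 1.27 CPM at day 3 and 1.33 to 2.14 CPM at day 5, and Adgre1 and Hbb-bs were at 0 in every library. Tpd52l1, of the D52 family linked to vesicle traffic, was at 5.47, 3.64 and 10.3 CPM in Cry1 knockdown cells, at 4.30, 1.06 and 3.92 CPM in Cry2 knockdown cells and at 4.21, 2.47 and 5.82 CPM in control cells. Tbc1d12, of the TBC family that regulates Rab proteins, was at 7.34, 4.80 and 9.79 CPM in Cry1 knockdown cells, at 5.85, 4.65 and 9.44 CPM in Cry2 knockdown cells and at 6.71, 5.28 and 12.7 CPM in control cells. Nckap1l and Tpd52l1 at day 5 were both highest in the Cry1 knockdown and lowest in the Cry2 knockdown.

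Over the set the median of each gene's middle ratio of day 5 to day 3 was 2.54, from 2.04 for Tbc1d12 to 4.99 for Xdh. The interval of the ratio lay above 1 in all 3 genotypes for 18 of the 19 genes, Ptx3 being the exception, and above 2 in all 3 for Ankrd1 alone. The rule had already asked for a ratio of at least 2 from the same counts. These intervals therefore describe counting error and are no test of the rise. Depth limits the low genes: 10 members had a day 3 count under 20 in some library, and 7 reached 10 CPM at day 5 in every genotype. The members nearest inside the limit were Sema3f, Tbc1d12 and Ptgs2, with smallest ratios of 2.01, 2.03 and 2.05. Just outside it lay Slc22a23 and Paqr3, at 1.98 and 1.91.

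Genes outside the set were read from the lists that held a member. In an edgeR fit of genotype and day, 14.7% of 13094 genes tested were higher and 13.2% lower at day 5 than at day 3 (adjusted p under 0.05). Of the other 13 complement genes 5 could be tested, of which 2 were higher, 0 were lower and 3 did not pass, with a median log2 difference of 0.29 against 0.01 over all genes. C1ra, whose protease C1r activates C1s, was at 6.25, 4.13 and 10.1 CPM in Cry1 knockdown cells, at 8.26, 4.65 and 7.66 CPM in Cry2 knockdown cells and at 7.95, 4.12 and 12.7 CPM in control cells. C1ra was 1.30 ± 0.23 higher (log2, SE) at day 5 than at day 3, with an adjusted p of 0.00425, and Cd55, which limits complement on the cell's own surface, was 0.77 ± 0.15 higher, with an adjusted p of 0.0059. Cd55 was at 12, 27.5 and 61.7 CPM in Cry1 knockdown cells on days 0, 3 and 5. It was at 14.8, 41.4 and 51.7 CPM in Cry2 knockdown cells and at 12.8, 35.1 and 53.5 CPM in control cells. Cd55 had thus risen by day 3 in every genotype and did not share the time course of the late set. Of the other 21 acute phase genes and NF-kB targets 9 could be tested and 0 passed in edgeR, with a median log2 difference of 0.22. Saa3, Lcn2, Hp and C3, which open that list, and C1qa, C1qb and C2, which follow C1ra in the complement list, had at most 3 counts in any library.

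In a bulk culture fewer cells of a type and less RNA per cell cannot be told apart. The markers of other cells had the following levels over the same days. Epithelial markers summed to 0.937 to 1.404 CPM at day 0, 2.11 to 2.64 CPM at day 3 and 4.64 to 9.18 CPM at day 5, nearly all of it Cdh1, with Krt18 at 0 in every library. Fibroblast markers (Pdgfra, Col1a1, Dpt and Lum) summed to 534 to 1742 CPM at day 0, 1422 to 3462 CPM at day 3 and 2494 to 5134 CPM at day 5. Most of that sum was Col1a1, whereas Pdgfra was at 19.2, 10.3 and 21.4 CPM in Cry1 knockdown cells, 16.2, 8.45 and 8.55 CPM in Cry2 knockdown cells and 23.5, 9.73 and 18.2 CPM in control cells. The 5 adipocyte markers summed to 22.2 to 38.5 CPM at day 0, 8.67 to 11.6 CPM at day 3 and 11.9 to 21.5 CPM at day 5, with Adipoq at 0 in every library. For smooth muscle and for Schwann and neural markers the sums were lower at day 5 than at day 3 in every genotype. Those of smooth muscle markers were 1309 to 1975, 2094 to 3447 and 1152 to 1501 CPM on days 0, 3 and 5, nearly all Acta2 and Tagln. Those of Schwann and neural markers were 193 to 346, 156 to 319 and 41.5 to 94.6 CPM, nearly all Tubb3, with Sox10 at 0. Osteoblast markers, nearly all Runx2, summed to 60.8 to 65.7, 27.1 to 39.7 and 32.3 to 44.5 CPM, and endothelial markers to 0.780 to 2.75, 1.82 to 2.97 and 1.96 to 2.82 CPM. From day 3 to day 5 the osteoblast sum rose in both knockdowns and went from 37.8 to 36.5 CPM in the control. The endothelial sum rose from 1.82 to 2.16 CPM in the Cry1 knockdown and fell in the other genotypes. The part of these cells in the late set was not tested.

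The late time course was next read in wider lists of genes, each chosen anew without the libraries of 1 genotype. The 19 members themselves were chosen with every library. Genes were chosen by the rule in 2 genotypes and then read in the third, whose values the choice had not used. With the Cry1 knockdown left out, 38 genes were chosen and 34 of them were higher at day 5 than at day 3 in it, against 46.3% of all protein coding genes at 3 CPM or more there. With the Cry2 knockdown left out the count was 31 of 33 against 44.4%, and with the control left out it was 46 of 54 against 46.5%. The median ratio of day 5 to day 3 in the left-out genotype was 2.31, 2.29 and 1.73, against 0.973, 0.956 and 0.977 over all such genes.

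The full rule was met in the left-out genotype by the 19 members, which are 50% of the genes chosen without the Cry1 knockdown, 57.6% of those chosen without the Cry2 knockdown and 35.2% of those chosen without the control. Within 1 genotype alone the rule took 126 genes in the Cry1 knockdown, 227 in the Cry2 knockdown and 166 in the control, or 1.18%, 2.14% and 1.56% of the protein coding genes at 3 CPM or more on day 5. The 3 readings are not independent of each other, since each pair shares a genotype in the choice.

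**Figure D3:**
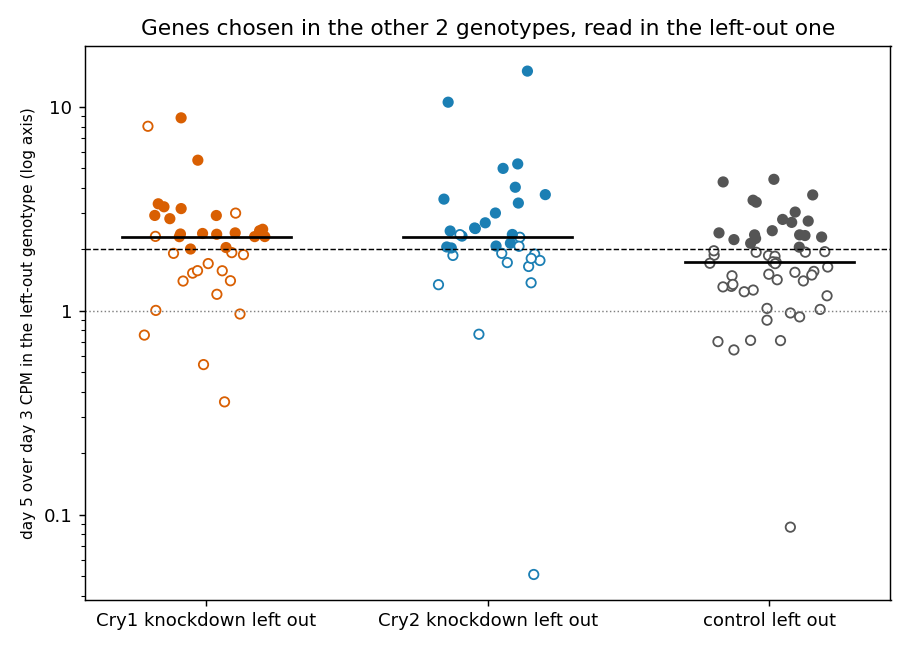
Day 5 over day 3 CPM (y axis, log) in the genotype left out of the choice, for genes that met the rule in the other 2 genotypes; filled points are the 19 late genes and open points the other chosen genes. Black bars mark medians of 2.31, 2.29 and 1.73, the dashed line marks 2 and the dotted line marks 1; a chosen gene with no count at day 3 is not drawn.

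Whether a knockdown changed the level of the late genes was tested over the 3 days, in an edgeR quasi-likelihood fit of genotype and day on all 9 libraries. The spread comes from departures of the days from a common genotype difference, with 4 residual degrees of freedom, so a culture that differed at all days cannot be told apart from the knockdown. All 19 members passed the filter on low counts. In the Cry1 knockdown against the control 1 of 19 members was called at an adjusted p under 0.05, where 2.67% of 13094 genes were called; an unadjusted p under 0.05 was found for 4 members and for 19.03% of all genes. In the Cry2 knockdown against the control 0 of 19 were called, where 0.084% of genes were called; an unadjusted p under 0.05 was found there for 4 members and for 12.2% of all genes, and DESeq2 also called 0 members. In the Cry2 knockdown against the Cry1 knockdown 1 of 19 was called, where 7.93% of genes were called, and 7 members and 25.8% of all genes had an unadjusted p under 0.05. Counts of 0 or 1 among 19 members are near these backgrounds. The rule asked for a like pattern of days in each genotype, which can narrow the spread of the members in this fit.

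C1s1 was the member that differed in the Cry1 knockdown. With the values given above, it was lower than in the control at all 3 days, by a log2 fold change of -1.38 ± 0.26 (SE) with an adjusted p of 0.0356. The call was lost when any control library was left out, with adjusted p of 0.0767 to 0.115, and also without the libraries of days 0 or 3 from the Cry1 knockdown, or of days 3 or 5 from the Cry2 knockdown. The estimate kept its sign throughout, from -1.89 to -1.15. In the Cry2 knockdown C1s1 was also lower than in the control at all 3 days, by -0.70 ± 0.26, which did not pass (adjusted p 0.328).

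Foxred2 was the member that differed between the knockdowns. It was higher in the Cry2 knockdown than in the Cry1 knockdown at all 3 days, with a log2 fold change of 0.99 ± 0.21 and an adjusted p of 0.0261. Without any single library of Cry1 knockdown cells, or that of day 0 or day 5 of Cry2 knockdown cells, the adjusted p was 0.0622 to 0.127, and DESeq2 gave 0.132. With only the 6 knockdown libraries it was 0.058, and Ptgs2 was the member called instead (adjusted p 0.0371); without day 0 of Cry2 knockdown cells Tpd52l1 was (adjusted p 0.0427). Against the control Foxred2 was at -0.70 ± 0.21 in the Cry1 knockdown (adjusted p 0.125) and at 0.29 ± 0.20 in the Cry2 knockdown (adjusted p 0.607), and neither passed.

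Several other members had values that did not pass. Gxylt2 was at -0.37 ± 0.11 in the Cry1 knockdown and -0.57 ± 0.11 in the Cry2 knockdown, each against the control (adjusted p 0.106 and 0.111). Ptgs2 was at 0.00 ± 0.14 in the Cry1 knockdown and -0.53 ± 0.15 in the Cry2 knockdown (adjusted p 0.996 and 0.218), and Sema3f was at 0.19 ± 0.20 and 0.67 ± 0.19 (adjusted p 0.644 and 0.221). Between the knockdowns Tpd52l1 was at -1.06 ± 0.30 and Ptgs2 at -0.53 ± 0.15 in the Cry2 knockdown against the Cry1 knockdown (adjusted p 0.0639 for each). Ankrd1, the member with the deepest counts, was at -0.03 ± 0.17 and 0.06 ± 0.18 against the control in the Cry1 and Cry2 knockdowns.

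The direction was mixed in each comparison with the control. Of the 19 members 10 were higher and 9 lower in the Cry1 knockdown, with a median log2 fold change of 0.00 against 0.01 over all genes tested, and 7 were higher and 12 lower in the Cry2 knockdown, with a median of -0.05 against 0.00. The 2 comparisons share the control libraries. The highest day 5 level was in the Cry1 knockdown for 4 members, in the Cry2 knockdown for 7 and in the control for 8.

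**Figure D4:**
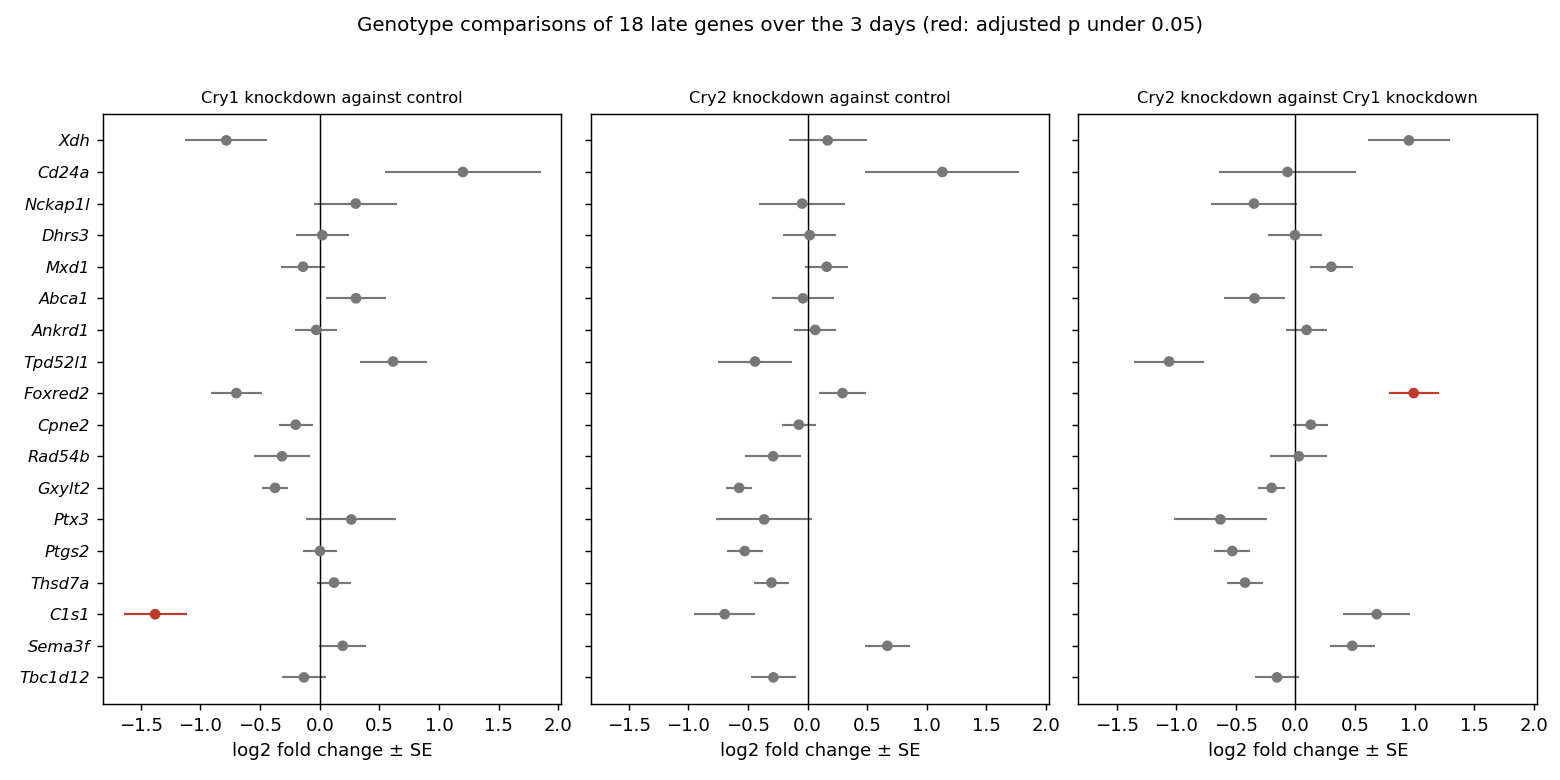
Log2 fold change with its standard error (x axis) of 18 late genes in 3 genotype comparisons over days 0, 3 and 5, from edgeR; a positive value means higher in the genotype named first. C1s1 at -1.38 in the Cry1 knockdown against control and Foxred2 at 0.99 in the Cry2 knockdown against the Cry1 knockdown, both in red, were the members with an adjusted p under 0.05.

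The late step was fitted as log2 day 5 against days 0 and 3 of the same genotype, with a day 3 term shared by the genotypes. Its size is thus not the ratio of day 5 to day 3 given above. It can be set side by side between genotypes only as a description, since the rule asked for day 5 at least 2-fold over day 3 in each of them. For Xdh the step in the Cry1 knockdown minus that in the control was 1.59 ± 0.49 (log2, SE), and in the Cry2 knockdown minus the control 1.28 ± 0.46. For Cd24a the differences were -1.13 ± 0.77 and 2.04 ± 0.85, for Ptx3 0.17 ± 0.68 and 1.52 ± 0.73, for Cpne2 -0.65 ± 0.23 and -0.38 ± 0.23, and for Mxd1 -0.78 ± 0.30 and -0.33 ± 0.30. In the edgeR fit 0 of 19 members were called in the Cry1 knockdown minus the control, where 0.00735% of 13608 genes were called, and 0 of 19 in the Cry2 knockdown minus the control, where 0% (0 genes) were called. Unadjusted p under 0.05 was found for 4 and 2 members, against 3.26% and 4.31% of all genes, and DESeq2 called 0 members in either. Nothing is read from these counts, because the choice of members bounded the steps compared.

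The members varied more between genotypes than protein coding genes did in general. Over all 19 members the median of highest over lowest genotype was 1.41, 1.52 and 1.52 at days 0, 3 and 5. Over protein coding genes at 3 CPM or more in all genotypes on that day it was 1.22, 1.253 and 1.23. Of the members 16, 9 and 19 met that limit of 3 CPM at days 0, 3 and 5. The members and the other genes were therefore filtered alike only at day 5. At day 5 the spread reached 3.58 for Cd24a. Low counts widen such a spread, and the members' levels were not matched to those of other genes.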

How the data were processed

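The authors deposited raw read counts per gene, 1 table for each of 9 libraries. Per the submitters' processing notes, CASAVA 1.8, HISAT2 2.0.2 and featureCounts 1.4.6 of Subread were used with mm10; the settings for strand and for reads with several matches are not given in the sources used here. Gene types and positions came from GENCODE M21 by gene ID; 419 of 47728 IDs had no match.

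CPM was computed from the deposited counts over each library's total. After TMM normalisation, edgeR 4.0.16 with limma 3.58.1 under R 4.3.3 gave a quasi-likelihood fit of genotype and day, with the default filter on expression, with Benjamini-Hochberg adjustment over all genes tested; DESeq2 1.42.0 was an alternative. The edgeR fit was tried on simulated counts that had no change shared between days and had changes only among the more abundant genes. It recovered 44 of 50 changes of 1.5-fold and 50 of 50 of 2-fold between genotypes there. The simulated spread was a single fixed value for all genes and was not matched to that of the members. Recovery among the members, many of them low in counts, was therefore not measured. A second fit, for differences in the late step, had an intercept per genotype and a day 3 term shared by the genotypes. Its late term, fitted per genotype, set day 5 against the earlier days of the same genotype. On simulated counts of the same kind this second fit recovered 1 of 50 changes of 1.5-fold, 24 of 50 of 2-fold and 50 of 50 of 4-fold. Ratios of 2 libraries have exact 95% intervals for counting error only. Exon overlap and shared 50-base words mark genes whose reads may be split. Of the members 18 were described; 1 member, and 1 gene close to the limit, are not reported here. Other genes named are Cry1 and Cry2, the first 4 genes of each list with a member, those called on it, and those nearest outside the limit. The members and lists were chosen with earlier results of these data known. The groups are 1 library each, so p-values rest on the spread between days and may not reflect separate cultures.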

Additional observations from a re-analysis of the deposited data

Results flagged for a closer look

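In some members the knockdown and control libraries lay on opposite sides of day 0; with 1 library per group none of these differences was tested. Xdh had a day 5 over day 0 ratio of 1.26 in the Cry1 knockdown and 1.13 in the Cry2 knockdown, against 0.42 in the control. Nckap1l had a day 5 over day 0 ratio of 0.756 in the Cry2 knockdown, against 1.07 in the control. Tpd52l1 had one of 0.911 in the Cry2 knockdown, against 1.38 in the control.

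Other genes differed in this way at day 3. Mxd1 had a day 3 over day 0 ratio of 1.06 in the Cry1 knockdown and 1.13 in the Cry2 knockdown, against 0.871 in the control. Cpne2 was at 1.17 times day 0 in the Cry2 knockdown, against 0.968 in the control. Thsd7a was at 0.664 times day 0 in the Cry1 knockdown and 0.664 in the Cry2 knockdown, against 1.01 in the control.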

How the results depend on the processing

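The size of the set follows its limits. It held 19 genes as reported, 102 with day 5 at 1.5 times day 3 or more, 1 (Cd24a) at 3 times, 7 with day 5 at 10 CPM or more, and 38, 33 and 54 when the rule ignored the Cry1 knockdown, the Cry2 knockdown or the control. TMM scaling gave 22 genes, 18 of them shared; Paqr3, Clmn and Slc22a23 were among those gained.

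Of the members called, the Cry1 knockdown against the control had 1, and 0 with no day term or with only the 6 libraries compared, with 0 to 1 when single libraries were left out. The Cry2 knockdown against the control had 0, and 2 (Gxylt2 and Ptgs2) with no filter on low counts. The Cry2 knockdown against the Cry1 knockdown had 1, with 0 in DESeq2 or with no day term, 5 with no filter, and 0 to 3 when single libraries were left out. The 1 member called was not the same throughout: it was Ptgs2 with only the 6 libraries and Tpd52l1 without day 0 of Cry2 knockdown cells. The late step had 0 in all 4 alternatives of each comparison, from which nothing is read.

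Over all genes the 3 genotype comparisons called 349, 11 and 1038. They called 919, 316 and 1528 with no filter, 319, 85 and 660 in DESeq2, 0 in each with no day term, 203, 5 and 808 with only the 6 libraries compared, and 27 to 366, 0 to 17 and 258 to 1137 when single libraries were left out. For the Cry2 knockdown against the control, a minimum of 1 CPM gave 6. The late step called 1 and 0 genes, 46 and 44 with no filter, and 2 and 6 in DESeq2. Outside the set, day 5 against day 3 called 3634 genes, 2363 in DESeq2, and 2029 to 3720 when single libraries were left out; these alternatives were chosen after seeing the data. The 15 estimates compared across refits, those of members with an unadjusted p under 0.05 in a genotype comparison, kept their sign. The other estimates were refitted too, but their signs were not compared. The causes were not tested. The day pairs the genotypes as a term of the fit, and the counts with no day term are those of the unpaired fit.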
